A study of Bos taurus with 12 samples.

Results

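The genes described here are 10 genes of T cells and of lymphocyte activation: CD3D, CD3E, CD3G, CD2, CD8A, CD8B, LCK, CD69, GZMB and PRF1. They were taken by symbol from the platform's probe-to-gene table, which gave them 15 probe sets, each with a single gene symbol. A gene counted as measured if 3 or more of the 12 arrays showed it above a log2 value of 4. By this rule 8 of the 10 genes were measured, among 6781 measured genes in all, and GZMB and PRF1 were not.

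The arrays were Affymetrix bovine 3' expression arrays of endometrium, the lining of the uterus, biopsied from Simmental heifers in the cycle before they received an embryo. The labels sort them by the day of the oestrous cycle and by what followed the transfer. CDd14 and NPd14 were biopsies of day 14, and CDd7 and NPd7 biopsies of day 7; CD stands for a pregnancy carried to the delivery of a calf, and NP for heifers that came back into heat without a pregnancy. Each group had 3 arrays, and each array held the RNA of a pool of biopsies. The sources used here do not give how many heifers made up a pool, or whether 1 heifer gave tissue on both days, so the p-values measure the spread between these pools. All values are GCRMA log2 signals as the authors deposited them, and a difference of 1 is a doubling.

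T cells recognise antigen through a receptor that carries the CD3 chains, and LCK, a kinase held by the CD4 or CD8 co-receptor, starts the signal inside the cell. CD8 T cells bind peptides on MHC class I with CD8A and CD8B chains, and kill through perforin, the product of PRF1, and granzymes such as GZMB. In cattle, as in other mammals, the endometrium holds many lymphocytes, a share of them within the epithelium, and CD8A is found there as well as CD3. Whether fewer cells of a type or less RNA per cell lay behind a lower value cannot be told apart in these biopsies of whole tissue.

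Among the defining T cell genes outside the 10, CD247, the zeta chain of the receptor complex, and ZAP70, the kinase that binds to it, were above the filter on 12 of 12 arrays, at means of 9.19 and 8.43. CD4 was above the filter on 0 of 12 arrays, with a highest value of 3.08. The same held for CD79A and MS4A1 of B cells, for NCR1 of natural killer cells, for IFNG, the gene of interferon gamma, and for GNLY. PGR, the progesterone receptor, was also above the filter on 0 arrays, with a highest value of 2.16, as were PECAM1 of endothelium and HBB of red cells. A dark probe set is thus not read here as the absence of a cell type. Of 24 other T cell surface genes listed, 12 had a probe set, and CD96 alone was measured.

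The 3 CD3 chains had clear signals on every array. CD3E, the epsilon chain, had values of 7.15, 8.19 and 7.65 in CDd14 pools 1 to 3, against 7.65, 6.69 and 8.77 in NPd14. At day 7 it had 7.51, 5.98 and 7.76 in CDd7, against 7.98, 7.15 and 8.74 in NPd7. The groups overlapped at both days, and the lowest array was CDd7 pool 2. CD3D, the delta chain, had 6.87, 7.85 and 7.72 in CDd14 and 7.66, 6.61 and 8.36 in NPd14. Its day 7 values were 6.82, 5.82 and 7.80 in CDd7 and 8.13, 7.08 and 8.72 in NPd7. CD3G, the gamma chain, ranged from 6.36 to 7.59 in CDd14 and from 6.05 to 7.83 in NPd14, and from 5.76 to 7.11 in CDd7 and 6.80 to 8.42 in NPd7. Pools of 1 group could differ by more than 1 log2 unit for each of the 3 chains, and CDd7 pool 2 was lowest of the 12 arrays. A second probe set of CD3D did not pass the filter.

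CD2, an adhesion receptor of T and natural killer cells, had 8.19, 9.07 and 8.79 in CDd14, against 8.42, 8.16 and 8.76 in NPd14. In CDd7 it had 8.05, 7.19 and 8.48, against 8.87, 8.28 and 9.25 in NPd7. Pool 3 of CDd7 lay above pool 2 of NPd7, so the groups overlapped. Its 2 other probe sets stayed under the filter.

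The co-receptor chains CD8A and CD8B were separated by outcome at day 7 and not at day 14. CD8A had 7.60, 7.77 and 7.60 in CDd14, against 7.64, 7.00 and 8.17 in NPd14. It had 6.88, 5.82 and 7.32 in CDd7, against 8.26, 7.99 and 8.84 in NPd7, with every CDd7 pool below every NPd7 pool. CD8B lay close to the filter. Its values were 3.71, 3.84 and 3.62 in CDd14 and 3.89, 3.61 and 4.17 in NPd14. They were 3.09, 3.30 and 3.59 in CDd7 and 4.67, 4.45 and 5.30 in NPd7. CD8B thus passed the filter through NPd7 and pool 3 of NPd14 alone, so a difference of NPd7 from the other groups is partly built into its being measured.

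LCK, the kinase of the co-receptors, had values of 9.35, 9.21 and 9.17 in CDd14 and of 9.45, 9.11 and 9.19 in NPd14. At day 7 they were 8.18, 7.24 and 8.39 in CDd7, against 9.32, 8.72 and 9.63 in NPd7. All 3 CDd7 pools lay below the 9 pools of the other groups, which overlapped with one another. A second kept probe set of LCK had means of 5.34 ± 0.11 in CDd14, 5.01 ± 0.09 in NPd14, 4.81 ± 0.30 in CDd7 and 5.44 ± 0.55 in NPd7 (SD, n = 3). The 2 probe sets correlated at r = 0.77 over the 12 arrays, and 1 more probe set of LCK stayed under the filter.

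CD69, a surface receptor that lymphocytes and other leukocytes show soon after activation, differed from the rest in its pattern. It had 7.98, 9.34 and 7.74 in CDd14, against 10.48, 9.45 and 8.21 in NPd14. It had 6.62, 4.72 and 6.99 in CDd7, against 7.56, 7.09 and 7.52 in NPd7. The day 14 pools lay above the day 7 pools of the same outcome in both outcomes, and CD69 had the widest range of the 8 genes, from 4.72 to 10.48.

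GZMB and PRF1 stayed under the filter on all 12 arrays. GZMB had 3.69 in CDd14 pool 1 and 3.92 in CDd7 pool 2, and between 1.98 and 2.06 in the other 10 pools. Single pools of CDd14 and CDd7 thus stood apart from the rest of their own groups. PRF1 lay between 1.79 and 2.21 on 11 arrays and was 3.27 in NPd7 pool 3. Values this low are near the bottom of the scale, and no comparison was made for either gene.

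**Figure D1:**
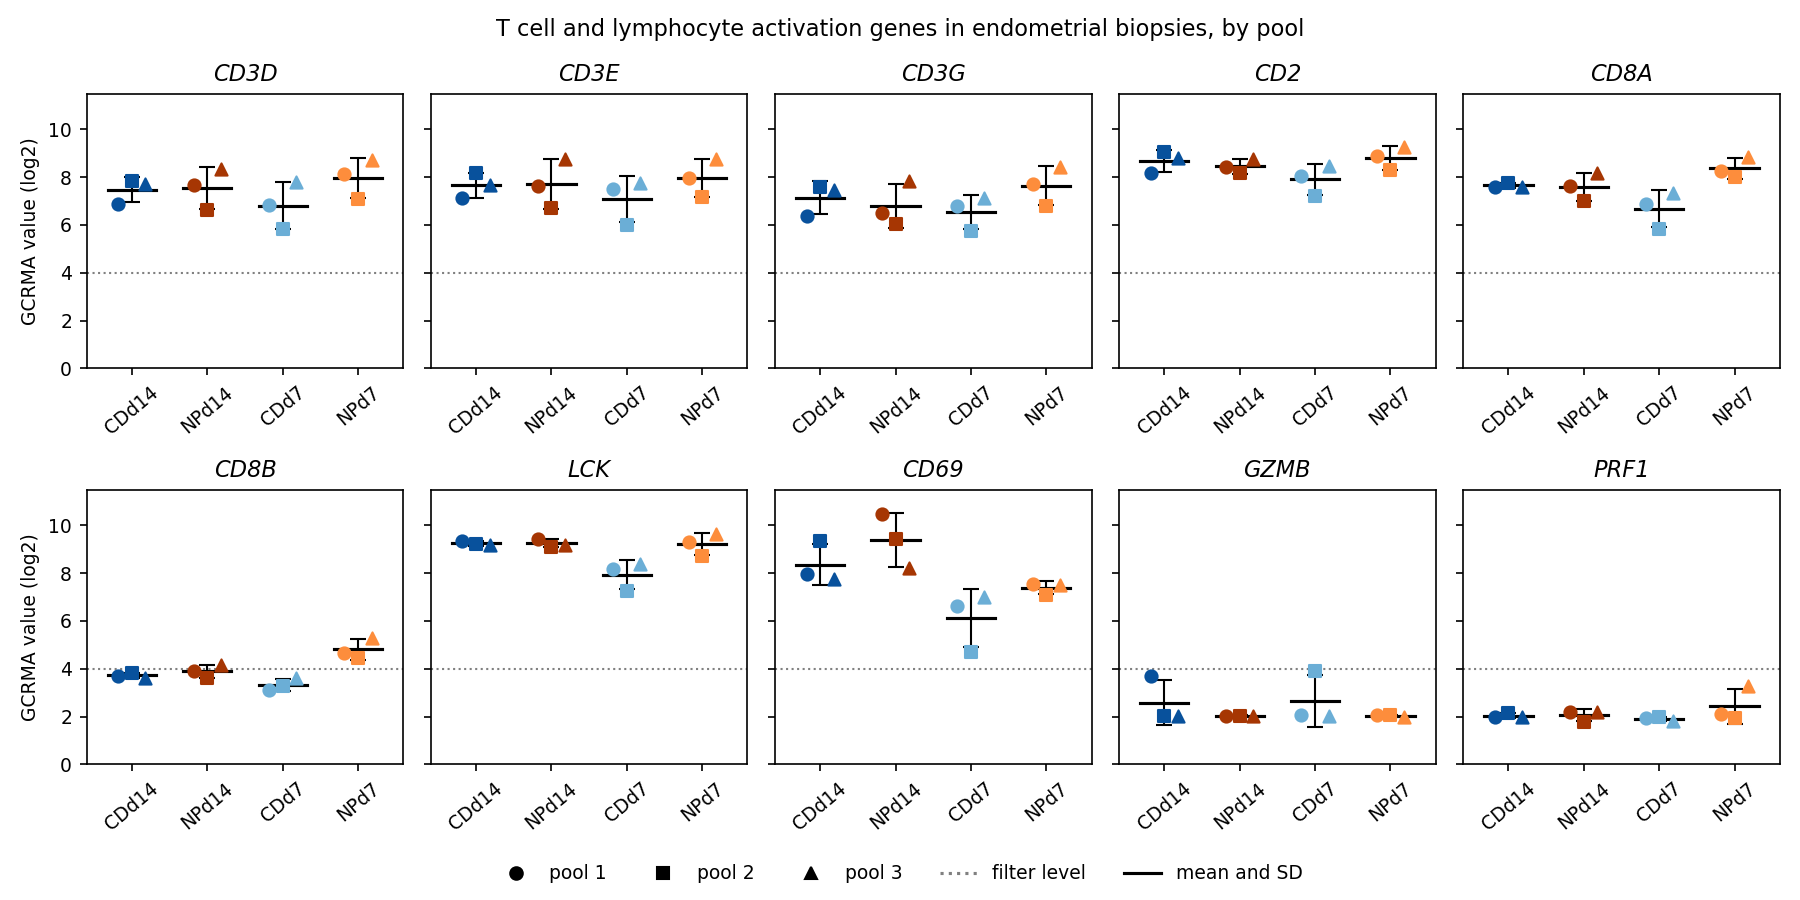
GCRMA values (log2, vertical axis) of the 10 genes in pools 1 to 3 of each group, with the mean and SD of a group as a bar and whiskers and the filter at 4 as a dotted line. CDd7 has the lowest group mean in all 8 measured genes, and GZMB and PRF1 lie under the dotted line on all 12 arrays.

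The order of the 4 group means was shared at its lower end. CDd7 had the lowest mean in 8 of 8 measured genes, while NPd7 had the highest in 6 and NPd14 in 2, LCK and CD69. For LCK the 3 upper means were 9.24 in CDd14, 9.25 in NPd14 and 9.23 in NPd7, a spread smaller than the SD within each of the 3 groups, which was 0.10, 0.18 and 0.46. By single arrays, CDd7 pool 2 was lowest for 7 genes and CDd7 pool 1 for CD8B, and NPd7 pool 3 was highest for 6. Averaged over the 8 genes as a deviation from each gene's own mean, the groups stood at 0.14 ± 0.35 in CDd14, 0.23 ± 0.44 in NPd14, -0.80 ± 0.75 in CDd7 and 0.42 ± 0.55 in NPd7 (log2, SD, n = 3). The CDd7 range, from -1.62 to -0.17, overlapped those of CDd14 and NPd14, whose lowest pools were at -0.20 and -0.26, and ended just below the lowest NPd7 pool at -0.15.

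At day 14 the outcomes did not differ for any of the genes beyond the spread between pools. None of the 8 measured genes passed limma's adjusted p of 0.05, which 0.0147% of all measured genes passed, and none had groups that did not overlap, as 10.6% of all genes had. The second probe set of LCK was an exception, with every CDd14 pool above every NPd14 pool, a log2 fold change of 0.33 and a limma adjusted p of 0.840. The median log2 fold change, CD minus NP, was -0.02, beside 0.03 over all genes, with 3 genes above 0 and 5 below. CD8A differed by 0.06 (95% interval -0.83 to 0.94), LCK by -0.01 (-0.67 to 0.66) and CD69 by -1.03 (-2.57 to 0.51). The adjusted p-values lay between 0.811 and 0.997 (limma), and 0 of the 8 genes had an unadjusted p under 0.05. The intervals of CD69, the CD3 chains and CD2 reached beyond 1 log2 unit.

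At day 7 all 8 genes had lower means in CD than in NP, with log2 fold changes from -1.69 to -0.87, and 3 of them fell. CD8A was 3.23-fold lower in CD, at 6.67 ± 0.77 in CDd7 and 8.36 ± 0.43 in NPd7 (SD, n = 3, log2 fold change -1.69, SE 0.40, limma adjusted p = 0.0474). CD8B was at 3.33 ± 0.25 in CDd7, under the filter, and 4.81 ± 0.44 in NPd7 (log2 fold change -1.48, SE 0.23, limma adjusted p = 0.0219). LCK was at 7.94 ± 0.61 in CDd7 and 9.23 ± 0.46 in NPd7 (log2 fold change -1.29, SE 0.30, limma adjusted p = 0.0466). Its second probe set differed in the same direction by -0.63 and did not pass (limma adjusted p = 0.125), and the mean of both probe sets gave -0.96 and did not pass either (0.0632). Of all measured genes, 2.02% fell in CD at day 7. Leaving out CD8B, which entered through its high group, 2 of 7 genes fell. The T cell genes were chosen with earlier results of these data known. Their shares set beside all genes, here and below, are thus descriptions.

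The other 5 genes did not pass at day 7. CD69 differed on the log2 scale by -1.28 (95% interval -2.82 to 0.25), CD3D by -1.16 (-2.51 to 0.19), CD3G by -1.09 (-2.37 to 0.20), CD2 by -0.89 (-1.70 to -0.08) and CD3E by -0.87 (-2.26 to 0.52). Their limma adjusted p-values were between 0.138 for CD2 and 0.361 for CD3E. The intervals of the CD3 chains contain both 0 and the values of CD8A, so these data do not separate the change of the CD8 chains from that of the CD3 chains. Taken pool by pool, the mean deviation of CD8A and CD8B minus that of the CD3 chains was -0.45, 0.31 and -0.49 in CDd7, against 0.13, 0.82 and 0.05 in NPd7, and the groups overlapped. The median over the 8 genes was -1.22, beside -0.01 over all genes. For 4 genes, CD8A, CD8B, LCK and CD69, every CDd7 pool was below every NPd7 pool, as it was for 18.6% of all genes; without CD8B these were 3 of 7 genes.

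The 3 calls at day 7 lay close to the threshold, and single arrays decided them. Without CDd7 pool 2 the adjusted p was 0.164 for CD8A, 0.0933 for CD8B and 0.156 for LCK, and the median over the 8 genes was -0.68. Without NPd7 pool 1 none passed either (0.148, 0.0932 and 0.160), nor without NPd7 pool 3 (0.197, 0.0866 and 0.189). CD8A and LCK, though not CD8B, also missed the threshold without any one of CDd14 pools 1, 2 or 3, NPd14 pool 1 or CDd7 pool 1, with adjusted p between 0.0608 and 0.0730, and LCK without NPd14 pool 3 (0.0501). With the arrays of day 7 alone 0 genes passed, and the log2 fold changes are the same by construction.

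Other measures moved with the groups at day 7. The difference between 3' and 5' probe sets of the control transcripts of GAPDH, cyclophilin and EF1A, which depends on RNA integrity and labelling, was 1.65 ± 0.20 in CDd7 and 1.94 ± 0.19 in NPd7 (log2, SD, n = 3). The lowest of the 12 arrays was CDd7 pool 2, at 1.42. For spike-in controls, which are not RNA of the tissue, the 3' to 5' difference was 3.81 ± 0.09 in CDd7 and 4.02 ± 0.28 in NPd7. CDd7 pool 2 was again lowest of the 12 arrays, at 3.71. The spike-in difference was not used in a fit. With the difference of the control transcripts as a covariate, 0 of the 8 genes passed at day 7. CD8A was then at -1.04 (limma adjusted p = 0.355), CD8B at -1.28 (0.236) and LCK at -0.90 (0.362), and the median was -0.72. The same covariate gave a median of 0.72 between outcomes at day 14 and of -1.26 with day in NP, with 0 of the 8 genes past the threshold in each. Of 16 listed genes of stromal fibroblasts 11 were measured and 6 fell in CD at day 7, beside 2.02% of all measured genes. This list too was chosen with earlier results of these data known, so its share is a description. The summed level of the 11 ranged from 11.56 to 12.53 in CDd7 and from 13.17 to 14.47 in NPd7. COL3A1, a fibrillar collagen, averaged 9.18 ± 0.63 in CDd7 and 12.12 ± 0.84 in NPd7 (SD, n = 3). Genes of epithelium had summed levels from 15.96 to 16.04 in CDd7 and from 16.04 to 16.12 in NPd7, with 11 of 15 measured and 0 past the threshold. The part of the tissue mixture in the lower T cell genes was not tested.

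**Figure D2:**
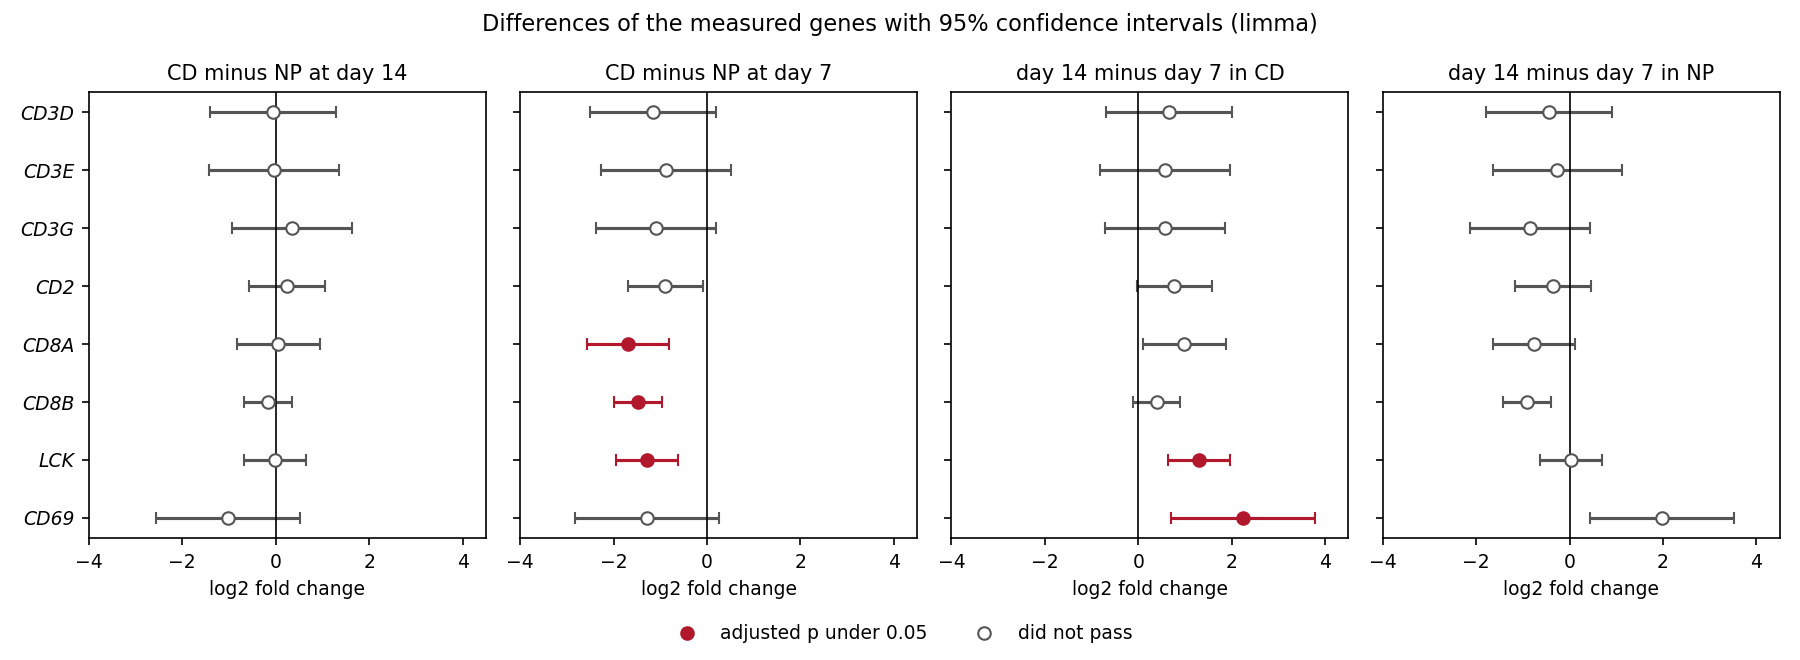
Log2 fold changes of the 8 measured genes (points) with 95% confidence intervals (bars) for 4 comparisons, filled where the adjusted p was under 0.05. At day 14 every interval between outcomes contains 0, and at day 7 CD8A, CD8B and LCK, at -1.69, -1.48 and -1.29, are filled.

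Between day 7 and day 14 of heifers that later calved, LCK and CD69 rose. LCK was at 9.24 ± 0.10 in CDd14 and 7.94 ± 0.61 in CDd7, 2.47-fold higher at day 14 (log2 fold change 1.30, SE 0.30, limma adjusted p = 0.0140). CD69 was at 8.35 ± 0.86 in CDd14 and 6.11 ± 1.22 in CDd7 (log2 fold change 2.24, SE 0.69, limma adjusted p = 0.0410). Of all measured genes 9.87% rose with day in CD, so 2 of 8 is not far from the share over all genes. All 8 genes had higher means at day 14, with a median of 0.72 beside -0.00 over all genes. The median was 0.40 without CDd7 pool 2. CD8A differed by 0.99 (limma adjusted p = 0.0937), CD2 by 0.77 (0.143), CD3D by 0.67 (0.439), CD3E and CD3G by 0.58 each (0.518 and 0.481) and CD8B by 0.39 (0.230). For CD8A, LCK and CD69 every CDd14 pool was above every CDd7 pool, as for 22.1% of all genes. The same order held for CD8B, but all 6 of its CD values lay under the filter.

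The rise of LCK passed in each of the 12 fits that left out 1 array, with adjusted p from 0.0102 to 0.0421, although the second probe set gave 0.53 with an adjusted p of 0.138 (limma). The rise of CD69 held without any one array of NPd14 or without CDd7 pool 3. It was lost without CDd7 pool 2 (log2 fold change 1.55, adjusted p = 0.145), CDd14 pool 2 (1.75, 0.127), CDd14 pools 1 or 3 (0.0662 and 0.0628), CDd7 pool 1 (0.0601) and NPd7 pools 1, 2 or 3 (0.0580, 0.0518 and 0.0564). CD8A passed when CDd7 pool 3 was left out (adjusted p = 0.0425). This comparison shares the CDd7 arrays with that of the outcomes at day 7, so the 2 are not separate evidence of a low CDd7. The 3' to 5' difference of the controls was 1.97 ± 0.11 in CDd14 and 1.65 ± 0.20 in CDd7 (SD, n = 3), and with it as a covariate 0 of the 8 genes passed, with LCK at 0.88 (limma adjusted p = 0.175) and CD69 at 1.93 (0.267). The median over the 8 genes was then 0.22, and the direction of the CD3 chains turned, with CD3D at -0.10, CD3E at -0.33 and CD3G at -0.06. The spike-in difference also moved with day. It was 4.27 ± 0.21 in CDd14 and 3.81 ± 0.09 in CDd7 (SD, n = 3), with every CDd7 pool below every CDd14 pool. In NP it was 4.42 ± 0.17 at day 14 and 4.02 ± 0.28 at day 7, and the groups overlapped. Its part in the changes with day was not tested.

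Between the days of heifers that did not become pregnant, none of the 8 genes passed, while 0.133% of all measured genes did (limma, either direction). CD69 was at 9.38 ± 1.13 in NPd14 and 7.39 ± 0.26 in NPd7, a log2 fold change of 1.99 (95% interval 0.45 to 3.52, limma adjusted p = 0.212). CD8B was at 3.89 ± 0.28 in NPd14 and 4.81 ± 0.44 in NPd7, a log2 fold change of -0.91 (-1.42 to -0.40, limma adjusted p = 0.123). CD8B counted as measured mainly through NPd7, so its lower value at day 14 is partly built in. These 2 were the genes whose groups did not overlap, in opposite directions, as 22.6% of all genes did not. They were also the 2 with an unadjusted p under 0.05 (limma), and the share over all genes at that level was not computed. LCK differed by 0.02 (95% interval -0.64 to 0.69), and CD8A, the CD3 chains and CD2 had log2 fold changes from -0.85 to -0.26 without passing. The median was -0.39, beside -0.06 over all genes.

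The change with day differed between outcomes by less than the test could call. None of the 8 genes passed for the difference of the day effects, CD minus NP, and 0% of all measured genes did (limma). All 8 differences were above 0, with a median of 1.20 beside 0.04 over all genes. CD8A, CD8B and LCK, 3 of the 8, had an unadjusted p under 0.05 (limma), and the share over all genes was not computed. The largest were CD8A at 1.75 (95% interval 0.50 to 2.99, limma adjusted p = 0.283), CD3G at 1.43 (-0.39 to 3.25), CD8B at 1.31 (0.59 to 2.03, limma adjusted p = 0.244) and LCK at 1.28 (0.34 to 2.22, limma adjusted p = 0.290). CD8B counted as measured mainly through NPd7, so its difference is partly built in. CD69 was at 0.26 (-1.92 to 2.43), its day effects being 2.24 in CD and 1.99 in NP.

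Across the 12 arrays the T cell genes moved together and CD69 moved less with them. Of the 28 pairs of measured genes, 19 had a Pearson correlation with a Benjamini-Hochberg adjusted permutation p under 0.05, and 16 a Spearman correlation. The permutations shuffled all 12 arrays without regard to group, so a difference between groups that both genes share can make a pair pass. The share of pairs of all measured genes that would pass was not computed. The median r was 0.74 over all pairs, 0.84 over the 21 pairs without CD69 and 0.39 over the 7 pairs with it. Taken as deviations from the group means, which removes the differences between groups, the medians were 0.72, 0.80 and 0.36. The genes thus varied together between pools of one group as well as between groups.

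The CD3 chains were the tightest set. CD3D and CD3E correlated at r = 0.96 (Spearman correlation 0.97, permutation p = 1e-05 for both, the smallest that 100000 permutations can give, adjusted 0.000187 and 9.33e-05), and at 0.91 without the 2 arrays farthest from the median. CD3D with CD3G had r = 0.93 and CD3E with CD3G r = 0.93, with 0.88 and 0.92 without the 2 farthest arrays. The 3 genes lie next to each other on 1 chromosome, in the order CD3E, CD3D, CD3G among coding genes of the RefSeq annotation, and CD8A and CD8B are also neighbours. CD2, which has no member as a neighbour, correlated with the CD3 chains at 0.90 to 0.93.

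CD8A went with the CD3 chains, with r of 0.88 with CD3D (Spearman correlation 0.86, adjusted permutation p = 0.000600 and 0.00269), 0.84 with CD3E and 0.83 with CD3G. Without the 2 farthest arrays these were 0.70, 0.58 and 0.64. Within groups its deviations correlated with theirs at 0.92, 0.95 and 0.86. CD8A and CD8B had r = 0.86 and a Spearman correlation of 0.97 (adjusted permutation p = 0.00165 and 9.33e-05), and 0.90 without the 2 farthest arrays, while their deviations within groups correlated at 0.69. CD8B with CD3E had r = 0.60 and did not pass (adjusted permutation p = 0.0560). On 8 of the 12 arrays CD8B was under the filter. CD8B counted as measured mainly through NPd7, where CD8A also had its highest mean. Their correlation over the 12 arrays, and its permutation p, is thus partly built into the choice.

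LCK went with CD8A at r = 0.84 (Spearman correlation 0.71, adjusted permutation p = 0.00216 and 0.0248), falling to 0.54 without the 2 farthest arrays. Its correlations with the CD3 chains, 0.71, 0.65 and 0.56 for CD3D, CD3E and CD3G, fell to 0.31, 0.33 and 0.26 without the 2 arrays farthest for LCK. They thus rest largely on those arrays. That with CD3G did not pass (adjusted permutation p = 0.0737), and by rank none of them did (Spearman, adjusted permutation p = 0.0678, 0.154 and 0.207). As deviations from the group means they were 0.73, 0.70 and 0.59. The only pair of CD69 to pass was that with LCK, at r = 0.78 (adjusted permutation p = 0.00524), which did not pass by rank (Spearman correlation 0.62, adjusted permutation p = 0.0564) and was 0.43 without the 2 farthest arrays. CD69 had r = 0.14 with CD3G and 0.16 with CD8B.

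**Figure D3:**
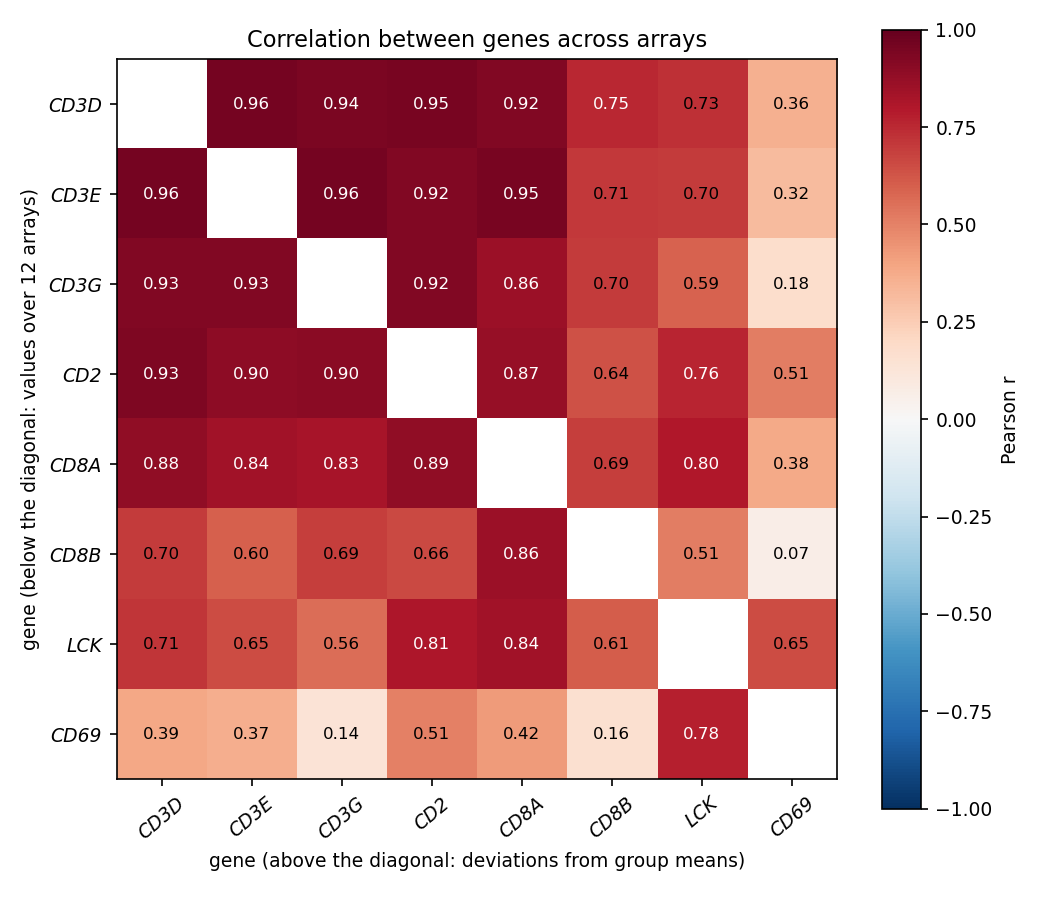
Pearson r between the 8 measured genes over the 12 arrays (below the diagonal) and of their deviations from the group means (above it), by colour from -1 to 1. The CD3 chains, CD2 and CD8A form a block between 0.83 and 0.96, and the row and column of CD69 are pale except with LCK, at 0.78.

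Other genes of T cells were read from lists of pathway genes and cell types. Of 31 genes of T cell receptor signalling 14 were measured, and at day 7 9 of them had lower means in CD and 0 passed, with a median of -0.32. CD247 differed by -1.26 (limma adjusted p = 0.133), ZAP70 by -1.09 (0.252) and FYN, a kinase related to LCK, by -0.97 (0.0905). PRKCQ, the theta form of protein kinase C, went the other way, at 9.54 ± 0.42 in CDd7 and 7.29 ± 0.78 in NPd7 (SD, n = 3), a log2 fold change of 2.25 that did not pass (limma adjusted p = 0.0557). With day in CD, PRKCQ fell to 4.79 ± 0.87 in CDd14, against 9.54 ± 0.42 in CDd7 (SD, n = 3, log2 fold change -4.75, limma adjusted p = 0.00203). PLCG1, a phospholipase that many cell types use, fell by 1.09 on the log2 scale (limma adjusted p = 0.00278). These were the 2 of 14 genes that passed in that comparison, against the direction of the 8 T cell genes. Of all 6781 measured genes, 964 fell in it, so 2 of 14 is near the share over all genes.

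The few measured genes of a cytotoxic list shared the direction of the T cell genes without passing. Of 25 listed genes of granules and killing 16 had a probe set and 6 were measured: CTSW, CTSC, SRGN, KLRK1, CD244 and CRTAM. GNLY, NKG7, IFNG and FASLG were among those not measured, and CRTAM was above the filter on 7 arrays. All 6 had lower means in CDd7 than in NPd7 (median -0.98) and all 6 higher means in CDd14 than in CDd7 (median 1.05), with 0 past the threshold in each. KLRK1, the activating receptor NKG2D, averaged 5.20 ± 0.80 in CDd7 and 6.48 ± 0.70 in NPd7 (SD, n = 3, limma adjusted p = 0.239). The mean deviation of the list correlated with that of the 8 genes at r = 0.93 over the 12 arrays, a description only, since both were read from the same arrays. CTSW, a cathepsin of cytotoxic lymphocytes, averaged 9.17 ± 0.69 in CDd14, 8.55 ± 0.49 in NPd14, 8.44 ± 0.71 in CDd7 and 9.14 ± 0.91 in NPd7 (SD, n = 3). It was thus a gene of cytotoxic lymphocytes above the filter on the arrays where GZMB and PRF1 were not.

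Of 17 lymphocyte transcription factors 6 were measured. With day in CD, NFKB1, a subunit of the NF-kappa B factor, rose to 7.39 ± 0.35 in CDd14, against 6.05 ± 0.55 in CDd7 (SD, n = 3, log2 fold change 1.34, limma adjusted p = 0.0103). It was the 1 of the 6 that passed in that comparison, in which 9.87% of all genes rose. PRDM1, the repressor Blimp-1, averaged 4.68 ± 0.98 in CDd7 and 6.87 ± 1.05 in NPd7, a log2 fold change of -2.19 that did not pass (limma adjusted p = 0.0609). All 6 were lower in CD at day 7 (median -0.44). Of 29 cytokine receptors and chemokines 10 were measured and 0 passed in any comparison, and at day 7 all 10 were lower in CD (median -0.72). XCL1, a chemokine of activated CD8 T and natural killer cells, averaged 3.67 ± 0.96 in CDd7 and 5.17 ± 0.79 in NPd7 (SD, n = 3, log2 fold change -1.50, limma adjusted p = 0.0913). CXCR6, a chemokine receptor of T cells, averaged 7.95 ± 0.61 in CDd7 and 8.87 ± 0.68 in NPd7 (limma adjusted p = 0.146).

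Genes of all leukocytes shared the direction. Of 18 listed 12 were measured, all 12 had lower means in CDd7 than in NPd7 (median -0.53), and 0 passed. PTPRC, the common leukocyte antigen CD45, differed by -0.62 (limma adjusted p = 0.397). With day in CD 3 of the 12 rose. CD53, a tetraspanin of leukocytes, rose to 8.43 ± 0.02 in CDd14, against 7.03 ± 0.29 in CDd7 (SD, n = 3, limma adjusted p = 0.0115). HCLS1, a substrate of the kinase LYN, rose by 1.45 on the log2 scale (limma adjusted p = 0.0447). The share over all genes in this comparison was 9.87%.

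CD69 was set beside lists of other leukocytes because it is not confined to T cells. Over the 12 arrays it correlated at r = 0.90 with the mean deviation of the 4 measured neutrophil genes of 11 listed, while the other 7 T cell genes together correlated with it at 0.44. As deviations from group means these were 0.71 and 0.49, given as descriptions. CD69 also correlated at 0.82 with the listed cytokine receptors and chemokines of lymphocytes (0.68 as deviations), at 0.79 with the genes of all leukocytes (0.60) and at 0.69 with those of macrophages and dendritic cells (0.48). The likeness was not confined to leukocyte lists, since CD69 correlated at 0.66 with the listed genes of epithelium (0.55 as deviations). The other 7 T cell genes had -0.07 with epithelium (-0.34 as deviations). The summed level of the neutrophil genes ranged from 9.31 to 10.75 in CDd14, from 10.59 to 12.74 in NPd14, from 5.72 to 7.98 in CDd7 and from 8.21 to 10.95 in NPd7. S100A12, a calcium-binding protein of neutrophils, rose in CD to 9.83 ± 0.74 in CDd14, against 6.32 ± 1.48 in CDd7 (SD, n = 3, limma adjusted p = 0.0185). It was the 1 of the 4 neutrophil genes that passed there, beside 9.87% of all genes that rose. Of the cytotoxic list, SRGN, the proteoglycan serglycin of leukocyte granules, had the pattern most like CD69 among 6773 genes, at r = 0.97. Its values were 9.61, 11.49 and 10.25 in CDd14, 12.95, 11.72 and 10.76 in NPd14, 9.02, 7.85 and 9.51 in CDd7, and 9.93, 9.28 and 10.05 in NPd7. The highest array of both genes was NPd14 pool 1 and the lowest was CDd7 pool 2. The part of other leukocytes in the CD69 values was not tested.

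**Figure D4:**
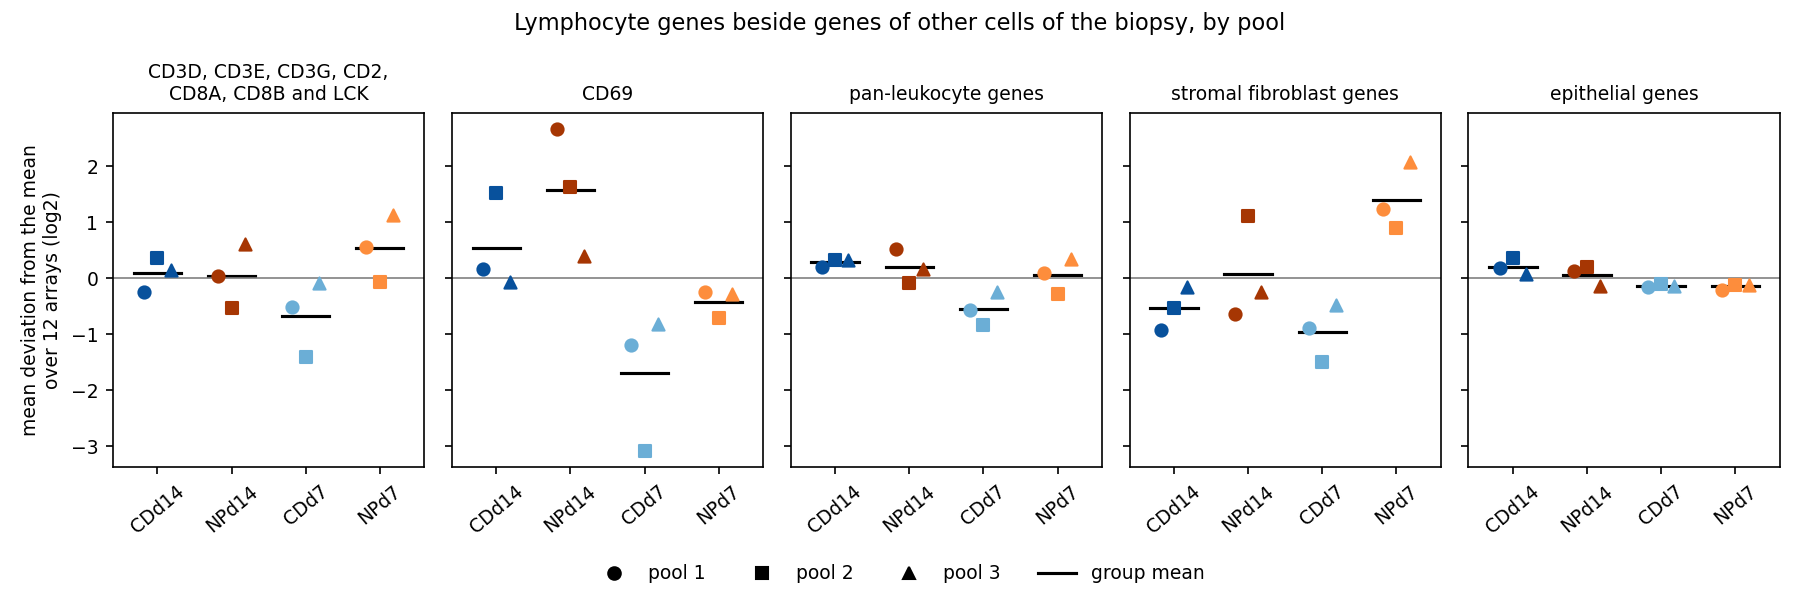
Mean deviation of each gene from its mean over 12 arrays (log2, vertical axis), by pool, for the 7 T cell genes without CD69, for CD69 and for listed genes of leukocytes, stromal fibroblasts and epithelium, with the group mean as a line. The T cell genes average -0.67 in CDd7 and 0.54 in NPd7, and the stromal genes -0.95 in CDd7 and 1.40 in NPd7, while the epithelial genes stay between -0.21 and 0.36.

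The remaining lists of cell types gave little. B cell genes were measured in 0 of 12 listed (5 with a probe set). Of 17 macrophage and dendritic cell genes 7 were measured, and 0 passed in any comparison. Of 12 endothelial genes CLDN5, a tight junction protein, was the only one measured, with a log2 fold change of 2.37 for CD against NP at day 7 and of -4.48 with day in CD (limma adjusted p = 0.0368 and 0.00176). PECAM1, the defining endothelial marker, was above the filter on 0 arrays. Of 8 red cell genes 2 were measured and GYPC fell in CD at day 7 (log2 fold change -0.98, limma adjusted p = 0.0434), as 2.02% of all genes did. HBB was above the filter on 0 arrays. Epithelial KRT7 and CDH1, 2 of the 11 measured, rose with day in CD (limma adjusted p = 0.0341 and 0.0342), where 9.87% of all genes rose.

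The genes whose pattern was most like the mean of the 8 genes were, in order, PATZ1, XCL1, SORBS3, CDO1, PRR15L, ZNF362, LOC100125415 and EEF1B2, with r between 0.99 and 0.96 over the 12 arrays. Among the 6773 other measured genes 127, or 1.88%, had an r above 0.9, and the median over all of them was -0.01. PATZ1, a zinc finger transcription factor, averaged 7.72 ± 0.28 in CDd14, 7.89 ± 0.38 in NPd14, 6.89 ± 0.54 in CDd7 and 7.99 ± 0.49 in NPd7 (SD, n = 3). CDO1, cysteine dioxygenase, was at 13.72 ± 0.16 in CDd14, 13.66 ± 0.36 in NPd14, 12.93 ± 0.46 in CDd7 and 13.74 ± 0.40 in NPd7. EEF1B2, a subunit of the translation elongation factor 1, spanned less, from 15.28 ± 0.13 in CDd7 to 15.56 ± 0.07 in NPd7. They were chosen for this likeness on the same arrays, so their order of groups is a description. Their deviations from group means correlated with those of the 8 T cell genes at 0.93 to 0.98.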

How the data were processed

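The values were the log2 signals that the authors deposited for 24128 probe sets on 12 arrays. The submitters' processing notes name GCRMA and limma, with no version; no source used here names a genome build. The 112 control probe sets were left out, and 13449 of 24016 others (56.0%) had a log2 value above 4 on at least 3 arrays. Genes were named from the platform annotation through probe sets with 1 symbol, and where a gene had several kept probe sets, the brightest on average stood for it. Symbols and neighbouring genes were checked against a RefSeq table. No sequence was used here.

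The limma package (3.58.1, R 4.3.3) was fitted on the 4 group means with 5 contrasts, empirical Bayes moderation and Benjamini-Hochberg adjustment over all 13449 kept probe sets, with calls at an adjusted p under 0.05 (two-sided). The fit was tested on simulated data. Pairs of genes were compared with Pearson and Spearman correlations and permutation p-values (1e+05 resamples). Arrays carry no read counts, so their number limits the precision; within groups they correlated at 0.921 to 0.988, between groups at 0.862 to 0.981, and their medians were 4.89 to 5.06.

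All 10 genes are named, the genes of a list that passed (up to 3 per comparison with the smallest p, otherwise 1 or 2 with the smallest p), and the 8 genes most like the mean. CD247, ZAP70, PTPRC, FYN, KLRK1, CTSW, CXCR6, COL3A1, SRGN as the gene most like CD69, and the defining markers were named for their role or after their values were seen. A gene of the leukocyte list that passed is not reported here. The members and lists were chosen with earlier results of these data known.

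Pool numbers recur across groups. Deviations of same-numbered pools correlated at -0.26 to 0.62 over 18 pairs, 11 of them over 0.1. Between NPd14 and NPd7 all 3 did (0.161, 0.619 and 0.507). NPd7 pool 1 had a higher value with NPd14 pool 3 (0.186) than with its own number. Across outcomes, CDd7 pool 2 and NPd7 pool 2 correlated at 0.363. The labels do not give pairing, and these values do not settle it. Alternatives were the filter, the eBayes options, quantile normalization, the choice of probe set, the arrays in the fit, the replicate block, the control covariate and leaving out each array.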

Additional observations from a re-analysis of the deposited data

Results flagged for a closer look

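Among the measured T cell genes, CD8B was the 1 with opposite changes in the 2 outcomes in every pool. All 3 CDd14 pools (3.62 to 3.84) were above all 3 CDd7 pools (3.09 to 3.59). All 3 NPd14 pools (3.61 to 4.17) were below all 3 NPd7 pools (4.45 to 5.30). The day effects were 0.39 in CD and -0.91 in NP, and they differed by 1.31 on the log2 scale, with an interaction that did not pass (limma adjusted p = 0.244, from 0.0778 to 0.557 over the alternatives). The change in CD lies wholly under the filter of 4. CD8B counted as measured through the 3 NPd7 pools and NPd14 pool 3 alone, so its lower value at day 14 in NP, and with it the difference of the day effects, is partly built into the choice. The share of all measured genes with such opposite changes in every pool was not computed. Single separations were common. Every CDd14 pool was above every CDd7 pool for 22.1% of all genes. With day in NP the groups did not overlap, in either direction, for 22.6%. No group of 3 arrays was tested for single outlying pools.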

How the results depend on the processing

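Counts of genes past the threshold were 3 at day 7, 2 with day in CD and 0 in the other comparisons. At day 7 the count was 1 without a filter (CD8B), 2 with the mean of a gene's kept probe sets (LCK lost), 0 with the day 7 arrays alone and 0 with the 3' to 5' control difference as a covariate. With day in CD it was 1 without a filter (LCK), 1 with the CD arrays alone (LCK) and 0 with the covariate. Leaving out 1 array at a time gave 0 to 3 genes at day 7 and 1 to 3 with day in CD, LCK among them each time. With all arrays kept, the medians moved by over 1.5 times with the covariate, where the median at day 14 was 0.72 (-0.02 without it), at day 7 -0.72 (-1.22 without it), with day in CD 0.22 (0.72 without it) and with day in NP -1.26 (-0.39 without it). Without CDd7 pool 2 that at day 7 was -0.68. Leaving out 1 array gave medians of -0.28 to 0.34 at day 14, -1.56 to -0.68 at day 7, 0.40 to 1.11 with day in CD, -0.81 to -0.09 with day in NP and 0.85 to 1.51 for the difference of day effects. The cause was not tested.

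With the replicate block on 12 arrays the counts were 0, 3, 2, 0 and 0 over the 5 comparisons. With day in CD the block called CD8A (adjusted p = 0.0339) and not CD69 (0.0522). A block on the NP arrays alone, chosen after seeing the data, gave 0 genes and a median of -0.39, and changed no call; 9 of 12 arrays correlated best with their own number.

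Over single genes, 3063 of 3185 recomputed values kept their side of the threshold, 84 calls were lost, 38 were gained and 0 reversed. The stricter filter at 6 left CD8B untested. The median r between genes was 0.64 to 0.79 with 1 array left out. The 0 calls at day 14 stood under every alternative run. That 0 genes had an unadjusted p under 0.05 there was counted in the main fit alone. The dim signals of CD8B, GZMB and PRF1 limit what these arrays show of them, and 3 pools a group limit the rest.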

Other observations

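Apart from SRGN, the genes most like CD69 over the 12 arrays were NFKBIZ, a nuclear inhibitor of NF-kappa B, at r = 0.93, IKBKB, a kinase of the same pathway, IFI30, a thiol reductase of antigen processing, and IL4R, a receptor of interleukin 4, each at 0.92. Only 7 of the 6773 genes had an r above 0.9 with CD69. NFKBIZ averaged 10.58 ± 0.67 in CDd14, 10.86 ± 0.32 in NPd14, 8.51 ± 0.51 in CDd7 and 9.70 ± 0.27 in NPd7 (SD, n = 3). IKBKB averaged 8.21 ± 0.21 in CDd14, 8.37 ± 0.17 in NPd14, 7.08 ± 0.18 in CDd7 and 7.77 ± 0.17 in NPd7. These genes were picked for their likeness after the values were seen, so they are a description with no test.

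Raised values on single arrays, as seen for GZMB and PRF1, occurred elsewhere among dim probe sets. Of the 10567 probe sets under the filter, 440 had exactly 1 array more than 1 log2 unit above their own median and 196 had exactly 2, together 6.02%. GNLY, also under the filter, reached 3.67 on its highest array with a mean of 2.21, and NKG7 reached 3.66 with a mean of 2.71.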
